A study of Homo sapiens with 4 samples.

Results

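The cathepsins described here are 10 genes, CTSA, CTSB, CTSC, CTSD, CTSE, CTSH, CTSK, CTSL, CTSS and CTSZ, taken by symbol from a deposited table of 61541 Ensembl gene rows. All 10 passed the filter on low counts, among 16863 genes tested. The libraries were made from MHCC97H, an established human hepatocellular carcinoma (HCC) cell line. The comparison had 2 libraries of each condition, cells carrying a control short hairpin RNA (shCon) and cells carrying a hairpin against UBXN1 (shUBXN1), a UBX domain protein that binds ubiquitin and works with the VCP ATPase. By the study's methods, hairpins were delivered by lentivirus and the control was named shRFP, whereas the labels speak of transfection and of shCon. The hairpin used for the sequenced cells, the time of harvest and whether replicates were separate cultures were not given in the sources used here, so the p-values below measure only the spread between these libraries, which may be technical.

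Cathepsins are the main proteases of the lysosome, the acidic compartment in which cells degrade endocytosed and autophagic cargo. They are made as inactive proenzymes in the endoplasmic reticulum, carried to the lysosome mostly by mannose 6-phosphate receptors, and activated there by cleavage. Most members are cysteine proteases of the papain family (CTSB, CTSC, CTSH, CTSK, CTSL, CTSS and CTSZ), CTSD and CTSE are aspartic proteases, and CTSA is a serine carboxypeptidase. In HCC, secreted cathepsins are known for the breakdown of extracellular matrix, and CTSB and CTSD for roles in cell death after lysosomal leakage.

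Library totals ranged from 23373700 to 27380508 counts, and 5.28% to 8.27% of counts came from the mitochondrial genome, with both shUBXN1 libraries above both shCon libraries. The part of this difference in the results below was not tested. The targeted gene UBXN1 had 1788 and 1817 counts in the control libraries and 416 and 433 in the knockdown libraries, a log2 fold change of -2.03 (SE 0.0963, adjusted p = 9.98e-10). Here and below, an adjusted p comes from the quasi-likelihood test of edgeR, adjusted by Benjamini-Hochberg over all genes tested, fold changes are shUBXN1 over shCon, and a gene is said to have risen or fallen where its adjusted p was under 0.05.

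After UBXN1 knockdown, most cathepsin transcripts were more abundant, and the family did not move as a block. CTSK, CTSH, CTSZ, CTSL, CTSS and CTSA rose, CTSE and CTSC fell, and CTSD and CTSB did not pass the test. The rises ran from 1.26-fold in CTSA to 4.14-fold in CTSK, and the falls were 1.43-fold in CTSC and 4.89-fold in CTSE. Thus 6 of 10 members were higher, where 28.0% of all genes tested were higher, and 2 of 10 were lower, where 28.2% of all genes were. Calls were common in this experiment, with 56.2% of all genes called in either direction. The median log2 fold change was 0.40 over the members and 0.02 over all genes tested. In CPM, counts scaled to library size with TMM, the groups did not overlap in any of the 10 members, and the same was true of 78.0% of all genes. At a fold change of at least 2 with an unadjusted p under 0.05, CTSK (higher) and CTSE (lower) passed among the members, against 17.9% of all genes. The libraries hold RNA of a whole culture, so a change in RNA per cell and a change in the share of cells that express a gene cannot be told apart.

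TPM values, which divide counts by gene length and scale every library to the same total, allow levels to be compared between genes. In shCon, mean TPM ran in the order CTSD (1201 ± 8.86, SD, n = 2), CTSL (796 ± 2.03), CTSB (618 ± 6.69), CTSA (279 ± 14.7), CTSC (254 ± 4.09), CTSZ (218 ± 6.61), CTSH (78.4 ± 2.84), CTSS (35.3 ± 3.24), CTSK (3.95 ± 1.32) and CTSE (3.21 ± 0.368). The replicates of neighbours in this order overlapped only for CTSK and CTSE. In shUBXN1 the order was CTSD (1414 ± 35.8), CTSL (1226 ± 12.9), CTSB (572 ± 10.9), CTSZ (393 ± 8.59), CTSA (367 ± 4.02), CTSC (185 ± 0.580), CTSH (151 ± 10.8), CTSS (50.8 ± 1.75), CTSK (17.1 ± 2.49) and CTSE (0.682 ± 0.147), with no overlap between neighbours. CTSZ thus stood below CTSA and CTSC in the control libraries and above both in the knockdown libraries. An exact two-sided permutation test of 2 libraries against 2 cannot give a p below 0.333, and no such test was run on the levels.

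Among the cysteine endopeptidases, CTSL and CTSB are the broadly expressed pair. CTSL (ENSG00000135047, chr9:87724051-87731469, plus strand of GRCh38), a potent general endopeptidase of the lysosome, had 794 and 797 TPM in shCon and 1235 and 1217 TPM in shUBXN1. Both knockdown libraries lay well above the controls, and CTSL rose by 0.57 on the log2 scale (SE 0.0820, adjusted p = 4.22e-05). The 7 rows of CTSL pseudogenes held at most 1 count in any library. CTSB (ENSG00000164733, chr8:11842524-11869533, minus strand), which cleaves both within proteins and as a dipeptidase from their C-termini, had 622 and 613 TPM in shCon and 579 and 564 TPM in shUBXN1. Its knockdown libraries were the lower pair without overlap, but the log2 fold change of -0.17 (SE 0.0776) did not pass the test at an adjusted p of 0.0766. The CTSB call turned on the settings, since its adjusted p was 0.0181 with DESeq2 but 0.147 with total count scaling. It passed in 3 of 12 alternative fits that kept all 4 libraries. With each library left out, its log2 fold change was from -0.20 to -0.14. The ratio of CTSL to CTSB TPM was 1.29 ± 0.0172 (SD, n = 2) in shCon and was 2.13 and 2.16 in the shUBXN1 libraries.

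CTSS and CTSK lie next to each other on chromosome 1, on the minus strand and 28.9 kb apart. CTSS (ENSG00000163131, chr1:150730079-150765957), which stays active at neutral pH and trims the invariant chain in antigen-presenting cells, had 37.6 and 33.0 TPM in shCon and 49.6 and 52.1 TPM in shUBXN1. Its groups were separate, and CTSS rose by 0.47 on the log2 scale (SE 0.0887, adjusted p = 0.000431). CTSK (ENSG00000143387, chr1:150794880-150809577), the collagen-degrading protease of osteoclasts, had 4.88 and 3.01 TPM in shCon and 18.9 and 15.3 TPM in shUBXN1. These levels rested on 113 and 63.4 expected counts in the controls and on 381 and 315 in the knockdown, which made it the weakest expressed of the members that rose. With a log2 fold change of 2.05 (SE 0.194, adjusted p = 6.98e-07), CTSK showed the largest rise of the family, and the value ran from 1.77 to 2.42 with each library left out in turn. The 2 shCon libraries differed from each other by a larger factor for CTSK than for any other member.

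The remaining cysteine members act mainly from the ends of proteins. CTSC (ENSG00000109861, chr11:88265069-88359684, minus strand), also called dipeptidyl peptidase I, removes dipeptides from N-termini and activates the serine proteases of granulocytes and cytotoxic lymphocytes. Its TPM was 257 and 251 in shCon and 184 and 185 in shUBXN1. CTSC was the only abundant cathepsin that fell, by 0.52 on the log2 scale (SE 0.0745, adjusted p = 3.89e-05), with both knockdown libraries below both controls. CTSH (ENSG00000103811, chr15:78921058-78949574, minus strand), an aminopeptidase, had 76.3 and 80.4 TPM in shCon and 159 and 144 TPM in shUBXN1. The knockdown libraries thus lay far above the controls, and the rise of 0.89 on the log2 scale had an SE of 0.0752 (adjusted p = 2.24e-07). CTSZ (ENSG00000101160, chr20:58985686-59008238, minus strand), a carboxypeptidase that carries an integrin-binding motif in its propeptide, had 214 and 223 TPM in shCon and 399 and 387 TPM in shUBXN1. CTSZ rose by 0.79 on the log2 scale (SE 0.0756, adjusted p = 7.83e-07), again with no overlap. Its exons overlap those of NELFCD, a subunit of the NELF transcription complex on the opposite strand, over 31.7% of their bases. NELFCD had 3029 to 3401 counts in the 4 libraries, and since the use of strand in counting was not given, reads from the shared bases cannot be assigned.

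CTSA (ENSG00000064601, chr20:45890144-45898949, plus strand), the protective protein that holds beta-galactosidase and neuraminidase in a lysosomal complex, had 269 and 290 TPM in shCon and 364 and 370 TPM in shUBXN1. Both knockdown libraries were above both controls, and CTSA rose by 0.34 on the log2 scale (SE 0.0836, adjusted p = 0.00341). This call depended on one library, since without shCon replicate 1 the log2 fold change was 0.26 at an adjusted p of 0.162. NEURL2, on the opposite strand, shares 11.1% of the exon bases of CTSA and held 16.0 to 55.9 counts. Both partners of CTSA in the complex also rose, where 28.0% of all genes tested did. GLB1, the beta-galactosidase, had 78.0 and 75.5 TPM in shCon and 105 and 108 TPM in shUBXN1 (log2 fold change 0.42, SE 0.0758, adjusted p = 0.000321). NEU1, the neuraminidase, had 58.0 and 59.3 TPM in shCon and 78.3 and 77.7 TPM in shUBXN1 (log2 fold change 0.35, SE 0.0744, adjusted p = 0.00101). In all 3 genes of the complex the groups were separate, as in 78.0% of all genes tested. Their rises were of similar size, between 1.26-fold and 1.33-fold.

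The aspartic cathepsins differ most in level. CTSE (ENSG00000196188, chr1:206008535-206023909, minus strand), a protease of endosomes in gastric epithelium and immune cells, was the least abundant member, with 2.95 and 3.47 TPM in shCon and 0.786 and 0.578 TPM in shUBXN1. This corresponded to 86.2 and 92 counts in the controls and 20 and 15 in the knockdown. CTSE fell by 2.29 on the log2 scale (SE 0.346, adjusted p = 6.10e-05), the largest change of any cathepsin, and the value ranged from -2.47 to -2.13 when single libraries were left out. On log2(TPM + 1), a scale that understates changes of weakly expressed genes, the value was -1.32. Nearness to CTSE was taken as the Euclidean distance between centred log2(CPM + 1) values over the 4 libraries. Among genes that averaged above 2 in log2 CPM, the nearest were RPL38P4 (0.0629), AZGP1 (0.0665) and METTL7B (0.0695). Their log2 fold changes were -1.66, -1.60 and -1.49, smaller in size than that of CTSE, whose fall this scale also understates. RPL38P4 is annotated as a pseudogene of a ribosomal protein gene, so its counts are uncertain. AZGP1, a secreted zinc-binding glycoprotein, had 12.5 and 15.1 CPM in shCon and 4.97 and 4.10 CPM in shUBXN1. METTL7B, a methyltransferase of the endoplasmic reticulum, had 52.6 and 58.8 CPM in shCon and 20.4 and 19.2 CPM in shUBXN1. The likeness of these genes to CTSE is what chose them.

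CTSD (ENSG00000117984, chr11:1752752-1764573, minus strand), the main aspartic protease of the lysosome, was the most abundant cathepsin in every library, with 1195 and 1208 TPM in shCon and 1389 and 1440 TPM in shUBXN1. The knockdown libraries were the higher pair, but the log2 fold change of 0.18 (SE 0.0860) had an adjusted p of 0.0917 and did not pass the test. It also moved with the settings, to 0.26 with total count scaling (adjusted p = 0.00267) and to 0.02 after a correction for GC content (adjusted p = 0.892). The CTSD row passed in 6 of 12 alternative fits that kept all 4 libraries. With each library left out, its log2 fold change was from 0.10 to 0.25. A further gene row of the table, ENSG00000250644, is annotated as a readthrough locus that runs from CTSD into its downstream neighbour IFITM10, a gene of the interferon-induced transmembrane family. Of the 4807 exon bases of the readthrough locus, 27.1% are shared with CTSD, 22.1% with IFITM10 and 50.8% with neither. This row had 4260 and 3781 counts in the controls and 14703 and 14371 in the knockdown libraries. It rose by 1.91 on the log2 scale (SE 0.0770, adjusted p = 2.10e-10), and IFITM10, with 236 and 194 counts in the controls and 1714 and 1546 in the knockdown, rose by 2.98 (SE 0.0949, adjusted p = 2.94e-11). In neither row did the groups overlap, which was also true of 78.0% of all genes tested.

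The bases joined at the end of exon 8 are shown for the main CTSD transcript and for a readthrough transcript because the transcripts of the locus part there. The CTSD junction is annotated in 14 of 16 CTSD transcripts and also in 1 of the 4 readthrough transcripts, whereas the readthrough junction is annotated in 2 of these 4 and in 0 of the CTSD transcripts. The first 15 bases of each line, in lower case, are the end of exon 8 at chr11:1753803-1753817, and the capitals are the first 15 bases of the exon joined to it, at chr11:1753656-1753670 for CTSD and at chr11:1748105-1748119 for the readthrough transcript (GENCODE v44 on GRCh38, minus strand, read 5′ to 3′).
CTSD exon 8 to exon 9: gactacacgctcaagGTGTCGCAGGCCGGG
readthrough exon 8 to exon 9: gactacacgctcaagGCCCAGGGCCCCGGC
All 8 exons before this point end at the same positions in both transcripts, so a read within them fits either row, as does one across the CTSD junction. The deposited values are expected counts, and how such reads were assigned was not given in the sources used here.

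The sum of the CTSD and readthrough rows was 28428 and 25954 counts in the controls and 39188 and 40231 counts in the knockdown. The readthrough row took 14.8% ± 0.294 (SD, n = 2) of this sum in shCon and 37.5% and 35.7% in the shUBXN1 libraries. The summed counts of the knockdown libraries lay far above those of the controls, and the log2 fold change of the sum was 0.60 (SE 0.0863, adjusted p = 3.64e-05), against 0.18 for the CTSD row alone. With the IFITM10 row added to both, it was 0.65 (SE 0.0862, adjusted p = 1.78e-05). These sums were chosen after the values were seen. The data do not show how many of the reads on shared exons came from the transcript that encodes CTSD. The lncRNA gene PRADX on the opposite strand covers 23.4% of the exon bases of CTSD and held 20.3 to 37.5 counts.

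Summed over the 10 members, cathepsin transcripts came to 3473 and 3501 TPM in shCon and 4379 and 4374 TPM in shUBXN1. The means were 3487 ± 20.1 (SD, n = 2) and 4377 ± 3.64 (SD, n = 2), a ratio of 1.26. This was 0.347% and 0.350% of all TPM in the controls and 0.438% and 0.437% in the knockdown. With TPM computed over protein-coding nuclear genes only, the ratio of the sums was 1.34. CTSB, CTSD and CTSL together made up 75.2% and 74.8% of the pool in shCon and 73.2% and 73.6% in shUBXN1. Of the pool of all 10 members, the share of CTSL was 22.9% and 22.8% in the controls and 28.2% and 27.8% in the knockdown, while that of CTSB was 17.9% and 17.5% and then 13.2% and 12.9%. CTSZ took 6.16% and 6.37% of the pool in shCon and 9.11% and 8.85% in shUBXN1, whereas CTSC took 7.40% and 7.17% and then 4.21% and 4.23%. The cysteine members as a class held 57.8% and 57.1% of the pool in shCon and 59.9% and 58.6% in shUBXN1.

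**Figure D1:**
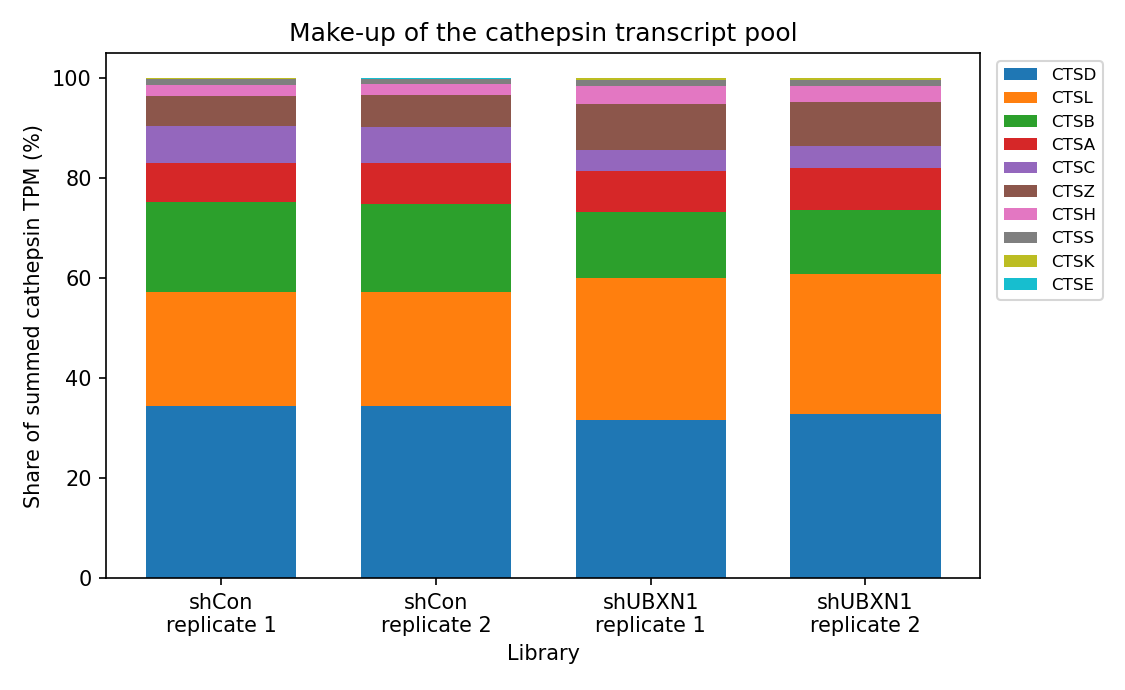
Stacked bars give the share of each cathepsin in the summed cathepsin TPM (vertical axis, percent) for every library. The CTSL and CTSZ parts are wider and the CTSB and CTSC parts narrower in the knockdown libraries than in the controls, and CTSD makes up 31.7% to 34.5% throughout.

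A set of 48 further genes in 6 lists covered the other cathepsins, the inhibitors, the sorting and processing machinery, the partners of CTSA, the MiT/TFE transcription factors and the class II antigen pathway, in which cathepsins act. Of these, 36 passed the filter on low counts, 17 rose and 5 fell, where 28.0% and 28.2% of all genes tested did. Without shCon replicate 2, 11 were higher and 4 lower. Their median log2 fold change was 0.26. The other cathepsins were weakly expressed, and none of the 3 tested passed. CTSF had 69 to 107 counts (log2 fold change 0.50, SE 0.233, adjusted p = 0.0804), CTSO had 487 to 529 counts (0.03, SE 0.102, adjusted p = 0.839) and CTSV had 132 to 187 counts (0.13, SE 0.191, adjusted p = 0.596). CTSG, the serine protease of neutrophil granules, had 0 counts in every library, and CTSW, a cathepsin of cytotoxic lymphocytes, had at most 4.

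Of 16 inhibitor genes, 8 were tested, of which 3 rose and 3 fell, where 28.0% and 28.2% of all genes tested did. The abundant inhibitors of cysteine cathepsins moved in opposite directions. CSTB, the cytosolic stefin B, had 684 and 666 TPM in shCon and 578 and 545 TPM in shUBXN1, and fell by 0.33 on the log2 scale (SE 0.0712, adjusted p = 0.00136). CST3, the secreted cystatin C, had 515 and 546 TPM in shCon and 647 and 677 TPM in shUBXN1, and rose by 0.26 (SE 0.0824, adjusted p = 0.0144), a call that was lost without shCon replicate 1 (0.19, adjusted p = 0.252). Neither gene overlapped between the groups, which was also true of 78.0% of all genes tested. The sum of both was 1199 and 1212 TPM in shCon and 1225 and 1222 TPM in shUBXN1. The 7 cysteine cathepsins together had 1.67 and 1.65 times the TPM of CSTB and CST3 in the controls and 2.14 and 2.10 times in the knockdown, a ratio of transcripts and not of active enzyme to inhibitor. CSTA, the cytosolic stefin A, fell from 87 and 92 counts to 15 and 17 (log2 fold change -2.42, SE 0.348, adjusted p = 3.91e-05). Among the serpins, which inhibit serine proteases and in some cases cathepsins, SERPINA3 rose from 66 and 51.6 counts to 487 and 471 (3.08, SE 0.154, adjusted p = 1.61e-09). SERPINB1, an inhibitor of neutrophil proteases, fell from 82.7 and 79.7 TPM to 39.8 and 40.4 TPM (-1.07, SE 0.0770, adjusted p = 4.46e-08). SERPINB6 had 114 and 96.2 TPM in shCon and 133 and 121 TPM in shUBXN1 (0.21, adjusted p = 0.0371), a call lost without shCon replicate 2 (0.12, adjusted p = 0.483).

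All 14 genes of the sorting and processing list were tested, and 8 rose while 2 fell, beside 28.0% and 28.2% of all genes. Fewer of these genes were called when a shCon library was left out, where only the shUBXN1 pair is left to measure the spread. SORT1, the sortilin receptor that carries several lysosomal proteins from the Golgi without the mannose 6-phosphate tag, showed the largest change, from 13.3 and 11.2 TPM in shCon to 37.9 and 38.5 TPM in shUBXN1 (log2 fold change 1.59, SE 0.0866, adjusted p = 3.29e-09). PSAP, the precursor of the saposins and a binding partner of pro-CTSD, had 869 and 840 TPM in shCon and 1278 and 1280 TPM in shUBXN1 and rose by 0.52 (SE 0.0856, adjusted p = 0.000121). LGMN, the asparaginyl endopeptidase that trims several cysteine cathepsins to their mature forms, had 35.7 and 40.8 TPM and then 53.0 and 58.0 TPM (0.48, adjusted p = 0.000929). In these 3 genes both knockdown libraries lay above both controls, and groups did not overlap in 78.0% of all genes tested. The mannose 6-phosphate receptors moved less. IGF2R, the cation-independent receptor, had 75.8 and 69.0 TPM in shCon and 92.9 and 86.1 TPM in shUBXN1 (0.25, SE 0.0778, adjusted p = 0.0144). M6PR, the cation-dependent receptor, had 251 and 248 TPM in shCon and 226 and 224 TPM in shUBXN1 (-0.21, SE 0.0746, adjusted p = 0.0281). Both calls were lost when either shCon library was left out. The log2 fold changes without replicate 1 and without replicate 2 were 0.29 and 0.20 for IGF2R and -0.22 and -0.20 for M6PR. M6PR also shares 30.9% of its exon bases with PHC1 on the opposite strand.

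The MiT/TFE factors are transcription factors known to drive lysosomal genes, several cathepsins among them, through E-box motifs with the core CACGTG. Of the 4 family members, 3 rose, where 28.0% of all genes tested did. TFE3 was by far the most abundant, with 83.7 and 86.1 TPM in shCon and 115 and 117 TPM in shUBXN1 (log2 fold change 0.39, SE 0.0769, adjusted p = 0.000595). TFEB had 3.04 and 2.65 TPM in shCon and 5.20 and 4.99 TPM in shUBXN1 (0.78, SE 0.221, adjusted p = 0.00786), and without shCon replicate 2 its adjusted p was 0.0502. MITF had 13 and 8 counts in the controls and 72 and 33 in the knockdown (2.36, SE 0.485, adjusted p = 0.000835), with a wide gap between the knockdown libraries. TFEC had 5.94 and 5.78 TPM in shCon and 6.21 and 5.52 TPM in shUBXN1 and did not pass the test (-0.06, SE 0.104, adjusted p = 0.653).

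Promoters from 250 bases before to 50 bases after the start were taken from a RefSeq table on GRCh38.p14, which held 7 of the 10 members (not CTSB, CTSK and CTSS). The letters CACGTG, which read the same on both strands, occurred in 2 of these 7, CTSA and CTSD, and in 7.26% of the 35116 promoters of the table. The matches in CTSA and CTSD and the one in the CTSA partner NEU1 are shown with 12 bases on either side, the motif in capitals, because these are the genes of the family and of its best known complex in which the core motif was found. The windows are chr20:45891281-45891310 and chr20:45891298-45891327 (plus strand), which overlap, for CTSA, chr11:1763957-1763986 (minus strand) for CTSD and chr6:31862930-31862959 (minus strand) for NEU1.
CTSA, 42 bases upstream: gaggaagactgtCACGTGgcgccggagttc
CTSA, 25 bases upstream: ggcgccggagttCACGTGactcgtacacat
CTSD, 47 bases upstream: gccggccgcgccCACGTGaccggtccgggt
NEU1, 126 bases upstream: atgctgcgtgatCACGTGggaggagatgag
The promoters of CTSC, CTSE, CTSH, CTSL, CTSZ and GLB1 did not hold these letters in this window, which says nothing of sites elsewhere or of other forms of the motif. Of the 2 members with the letters, CTSA rose and the CTSD row alone did not pass the test. The sum of the CTSD row with the overlapping readthrough row, chosen after the values were seen, rose by 0.60 (adjusted p = 3.64e-05). Members without them were found among those that rose and those that fell. A match describes the sequence and not binding.

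Cathepsins S and L act with the class II antigen pathway in immune cells. HLA-DRA and HLA-DRB1 had 0 counts in every library. Of the 5 genes of this list that were tested, only IFI30 passed, where 56.2% of all genes tested did. It is a thiol reductase of the lysosome and is named here because of its value. IFI30 had 684 and 687 counts in the controls and 1209 and 1254 in the knockdown (log2 fold change 0.90, SE 0.0920, adjusted p = 1.43e-06). However, it shares 42.5% of its exon bases with the row ENSG00000268173 on the same strand. The 2 rows together had 1436 and 1154 counts in the controls and 1412 and 1768 in the knockdown. These sums overlap between the groups only as raw counts, not scaled to library size, and shCon replicate 1 was the largest library. The sum was not tested. CD74, the invariant chain that CTSS cleaves, had 31 and 35 counts in the controls and 43 and 51 in the knockdown (0.56, SE 0.357, adjusted p = 0.196).

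Since macrophages, fibroblasts and endothelial cells also express cathepsins, markers of these cells and of hepatocytes were read in the same libraries. All 9 hepatocyte markers were tested, and the keratin gene KRT8 had 2993 to 4059 TPM, whereas ALB, the albumin gene that defines mature hepatocytes, had 479 and 403 counts in shCon and 104 and 112 in shUBXN1. The hepatocyte list summed to 5430 and 5480 TPM in shCon and 4652 and 5067 TPM in shUBXN1. In it, 2 of the 9 markers were higher and 6 lower, where 28.0% and 28.2% of all genes tested were. Of 9 myeloid markers, 4 were under 10 counts in every library, with AIF1 at 0, CSF1R and FCER1G at 1 count at most and PTPRC, the common leukocyte antigen, at 4 at most. TYROBP, with 4 to 11 counts, was not tested either. Of the 4 tested, CD68 and LYZ fell, where 28.2% of all genes tested did. ITGAM, with 146 to 233 counts, and CD14, with 13 to 20, did not pass the test. The myeloid sum, 105 and 108 TPM in shCon and 98.4 and 88.6 TPM in shUBXN1, came nearly all from CD68, a lysosomal membrane protein that many cell lines express. The fibroblast list summed to 25.1 and 24.5 TPM in shCon and 12.9 and 13.6 TPM in shUBXN1, nearly all from LUM, a matrix proteoglycan with 24.1 and 23.9 TPM and then 11.3 and 12.6 TPM. In the same list COL1A1, a chain of type I collagen, rose from 10 and 4 counts to 58 and 59 (log2 fold change 3.11, SE 0.468, adjusted p = 5.83e-05), and DCN fell from 17 and 13 counts to 2 and 1 (-3.16, SE 0.752, adjusted p = 0.00250). The endothelial list summed to 15.2 and 15.2 TPM in shCon and 31.9 and 32.1 TPM in shUBXN1. The endothelial sum came mostly from KDR and PECAM1, which both rose (log2 fold changes 1.79 and 0.35, adjusted p = 5.19e-09 and 0.00208). VWF, the other gene tested of this list, did not pass (1.21, adjusted p = 0.0501). CDH5, a defining endothelial marker, had 3 and 6 counts in shCon and 0 in both shUBXN1 libraries, too few to be tested. The part of these markers in the cathepsin values was not tested.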

How the data were processed

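RNA of 4 MHCC97H libraries (2 shCon, 2 shUBXN1, grouped by sample title) was sequenced by the authors in paired ends. The authors deposited expected counts per gene, not normalized, with a gene length, in 1 table. Per the study's methods, reads were mapped to GRCh38 with Hisat2, whereas the submitters' processing notes list HISAT2 2.0.4, StringTie 1.3.0 and GRCh37. Of the gene IDs, 99.7% were found in GENCODE v44 (GRCh38), which gave symbols and coordinates. The counting tool, the annotation and the use of strand were not given in the sources used here. Between 62.4% and 64.6% of the values above 0 were whole, so some values were estimates and not whole reads, which limits the values of overlapping genes.

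Counts were rounded to whole numbers and fitted without a block in edgeR 4.0.16 under R 4.3.3 (filterByExpr, TMM, then glmQLFit with glmQLFTest). The study names limma on TPM and a fold change of 2 with p under 0.05, which were used as separate alternatives since the table holds counts. TPM was computed from counts and deposited lengths. SE was obtained by dividing a log2 fold change by the root of its F statistic. With 2 libraries per group there were 2 residual degrees of freedom per gene, the spread was shared across genes, and the biological coefficient of variation was 0.0711. Replicates differed by more than sampling noise (chi-square per degree of freedom 3.83 in shCon and 8.42 in shUBXN1). The fit was also run on simulated counts with far fewer changed genes than were called here, so that run does not check these calls.

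Genes named are the 10 members, UBXN1, from the 6 lists GLB1, NEU1, LGMN, PSAP, CST3, CSTB, IGF2R, M6PR, TFEB, TFE3, MITF and those called with a fold change of 2, and the 3 genes most like the most changed member. Other names, such as SERPINB6, IFI30, COL1A1, DCN, LUM, CD74, IFITM10 and the remaining cathepsins, were added once their values had been seen. The members and lists were chosen with earlier results of these data known. Alternatives were DESeq2 1.42.0, RLE and total count scaling, limma 3.58.1 on log2(TPM + 1) and log2(TPM + 0.1), limma-voom, other filters, a replicate block, a GC correction, unrounded counts, each library left out, and, added later, CTSD summed with overlapping rows.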

Additional observations from a re-analysis of the deposited data

How the results depend on the processing

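CTSK, CTSH, CTSZ, CTSL, CTSS, CTSE and CTSC kept their calls under every alternative fit at the adjusted p and with each library left out, and CTSA under all but 1, without shCon replicate 1. No cathepsin changed direction. Of 162 alternative values of the members, 147 stayed on the same side of the threshold, 1 lost its call and 14, all of CTSB or CTSD, gained one. With each library left out, 5 to 7 cathepsins were higher and 2 to 3 lower, and in the 6 lists 11 to 17 were higher and 4 to 6 lower. The lowest of these, 11, came without shCon replicate 2. The study's thresholds, a 2-fold change with p under 0.05, were applied to the edgeR fit and not to limma on TPM. The counts were then 1 and 1 for the cathepsins, 3 and 2 for the lists, and 1997 and 1027 for all genes, against 4727 and 4751 at the adjusted p. The fold threshold itself removes smaller changes. The mean summed cathepsin TPM in shCon and shUBXN1 was 2286 and 2962 without CTSD, 4129 and 5527 over protein-coding nuclear genes, and 3566 and 4689 with the readthrough row added.

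The replicate numbers did not pair the libraries by the labels, and deviations of same-numbered libraries correlated at 0.077 across genes. With the replicate block, 6 cathepsins were higher and 2 lower, the lists had 17 and 5, all genes 5000 and 5023, and UBXN1 was at -2.03. Of the members, CTSE and CTSK rested on the fewest counts, 15 to 381 per library, and shared exons limit CTSD.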
